A study of Mus musculus with 18 samples.

Results

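Microglia taken from the corpus callosum, the large white matter tract between the hemispheres, were compared with microglia taken from the grey matter of the cortex in adult mice. The comparison used the 6 adult arrays of the 18 in the series, 3 per region, and covered all 22180 genes with a probe set of a single gene symbol. The groups were defined by the region and stage in the labels alone, and every difference is given as corpus callosum minus cortex. The other 12 arrays hold both regions at postnatal day 7 (P7) and postnatal day 3 (P3), again with 3 arrays per group. They serve here as a scale for the adult values. The P3 arrays carry another label prefix than the P7 and adult arrays. An effect tied to the prefix could not be told apart from age in levels. It cancels in a comparison of regional differences only if equal in both regions, which was not tested.

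All mice were untreated C57Bl/6 animals housed free of specific pathogens. The adult mice are described as adult, with no age in the labels. Brain cells were separated on a Percoll density gradient and sorted for CD45 and CD11b on the surface and for the absence of Gr1, a gate that keeps microglia but also admits other macrophages of the brain. Amplification of the RNA used the Ovation PicoSL WTA System V2, biotin labelling used the Encore Biotin Module, and the arrays were from Affymetrix. The labels name neither the sex nor the number of animals behind an array, so the spread between arrays of a group may be partly technical, and p-values measure only that spread.

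Microglia are the resident macrophages of the brain. In the first postnatal weeks a population of them in the developing white matter takes on an amoeboid, phagocytic state, with lysosomal, lipid-handling and growth factor genes, and in adulthood most microglia return to a surveying state marked by purinergic and chemokine receptors. Adult white matter consists mainly of myelinated axons, and its microglia handle lipid-rich myelin debris.

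Both regions carried the sorted identity. P2ry12, the purinergic receptor that steers microglial processes, read 12.19, 12.17 and 12.23 in cortex and 12.20, 12.16 and 12.26 in corpus callosum on the log2 scale. Cx3cr1, the fractalkine receptor, read 12.18 to 12.43 for cortex and 12.28 to 12.47 for callosal arrays, and Csf1r, the receptor for the survival factor CSF1, read 11.96 to 12.25 and 12.06 to 12.19. The regions overlapped for all 3 genes, and the differences were 0.01 ± 0.12, 0.01 ± 0.11 and -0.00 ± 0.14 (standard error, SE, n = 3 per region). Of 22 measured genes of the homeostatic microglial state, 0 were called in limma's moderated test, and the median difference was -0.07. At an unadjusted p under 0.05, 0 were higher and 2 lower, beside 4.16% higher and 4.35% lower of all genes. The array medians over genes were 5.74 to 5.76 for cortex and 5.77 to 5.84 for callosal arrays, without overlap. With each array centred on its median, the median difference over all genes went from 0.01 to -0.04. That of the homeostatic list went from -0.07 to -0.12. The cause of this small offset was not tested.

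The following features of these 6 arrays bear on every value that follows. The arrays numbered 1 in both regions stood apart from the rest: they correlated with the other adult arrays at 0.973 to 0.976, against 0.983 to 0.990 among the other 4. Their correlation with each other was 0.973, the lowest of any adult pair. Their deviations from the mean of their own region correlated at 0.30, against 0.06 for the arrays numbered 2 and 0.25 for those numbered 3. They were also the only adult arrays with a high level of Xist, the transcript of the inactive X chromosome, at 11.08 in cortex and 11.45 in corpus callosum against 4.83 to 5.12 elsewhere, and the only ones with a low level of the Y-linked gene Kdm5d, at 3.83 and 4.12 against 7.14 to 7.43. Sex as read from these genes was therefore balanced, with 1 of 3 arrays per region. The other feature was a small slope of the difference with signal level. With the genes divided by adult level into 4 groups of 5545, the median difference was 0.07 in the lowest group and -0.09 in the highest. Normalizing the arrays again by cyclic loess, which removes such slopes, brought these medians to 0.00 and -0.00.

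A single transcript differed after adjustment over all genes. Lpl, which encodes the lipoprotein lipase that releases fatty acids from circulating triglycerides and that macrophages secrete, was called higher in corpus callosum (0.00451% of genes called, 1 of 22180, at an adjusted p under 0.05 in limma's moderated test). At an unadjusted p under 0.05, 923 genes were higher in corpus callosum (4.16%) and 965 lower (4.35%). These 2 counts shifted with the scaling of the arrays, to 623 higher and 1194 lower after a further quantile normalization, to 531 and 1507 with each array centred on its median, and to 753 and 856 after cyclic loess. Complete separation of the 3 arrays of one region from those of the other occurred for 1493 genes with corpus callosum above (6.73%) and for 1347 with corpus callosum below (6.07%).

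The regions were alike for most genes within limits set by 3 arrays a side. The 95% interval of the difference lay within 1 log2 unit on either side of 0, a factor of 2, for 21544 genes (97.1%), and within 0.5 log2 units for 57.3%. The corresponding shares within 1 log2 unit were 97% at P7 and 95.7% at P3, so this measure did not set the ages apart. The median absolute difference was 0.13 in adults, 0.11 at P7 and 0.14 at P3. Point estimates beyond 1 log2 unit were fewer in adults, with 16 genes higher and 7 lower, than at P7, with 70 and 5, or at P3, with 56 and 30, and these counts were not tested against each other. At the median SE of 0.16 a gene needed a difference of 1.06 to be the first call after adjustment over all genes. For an unadjusted p of 0.05 (limma) it needed 0.33 at that SE. Regional differences between these 2 sizes could thus go uncalled at that SE.

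Replicate number and region took similar shares of the variation between arrays for their degrees of freedom. Of the summed squared deviations over all genes, region took 20.8% in adults, the replicate number 48.4% and the remainder 30.8%. Replicate number has 2 degrees of freedom and region 1, and per degree of freedom the replicate number took 24.2% and the remainder 15.4%. At the younger ages region took 30.7% at P7 and 27% at P3. Correlations between an adult cortex array and an adult corpus callosum array ran from 0.973 to 0.987, inside the range of 0.973 to 0.990 between arrays of the same region. Without the 2 arrays numbered 1, the pair within cortex correlated at 0.990, the pair within corpus callosum at 0.984 and the pairs across regions at 0.983 to 0.987. The corpus callosum arrays thus resembled each other no more than they resembled the cortex arrays.

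**Figure D1:**
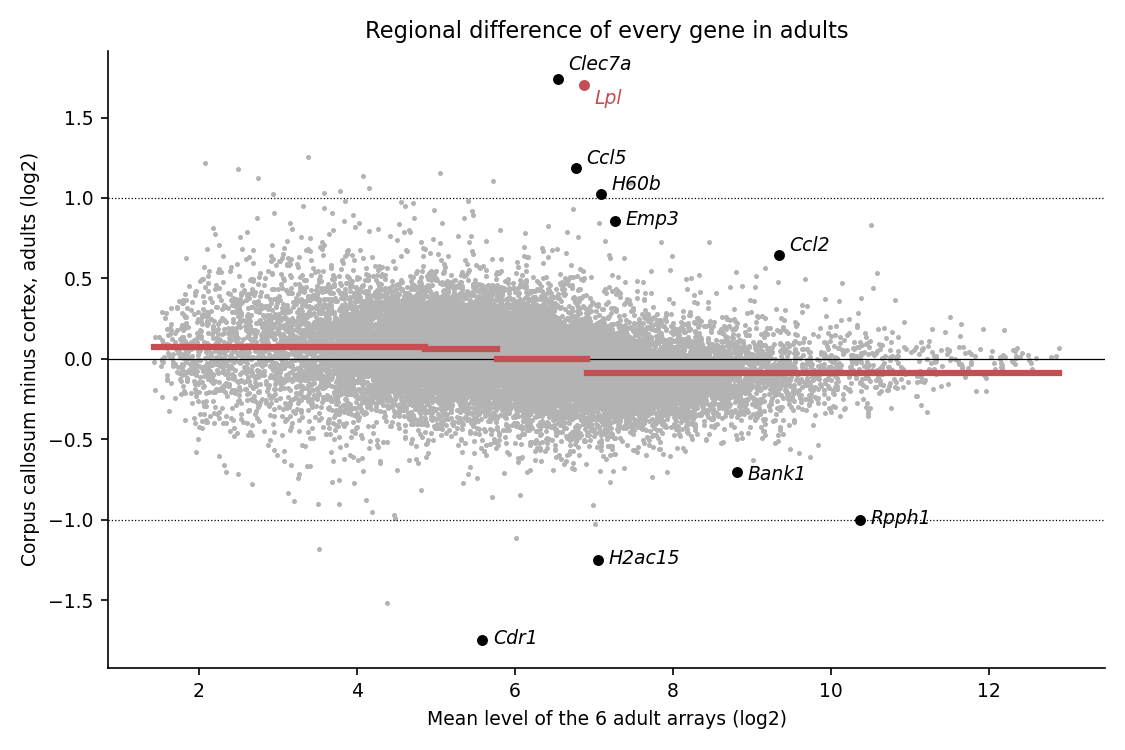
Difference of corpus callosum minus cortex in adults (vertical axis, log2) against the mean level of the 6 adult arrays (horizontal axis, log2), 1 point per gene for 22180 genes. Red bars show the median difference within each of 4 groups of genes by level, from 0.07 in the lowest to -0.09 in the highest, dotted lines mark 1 log2 unit, and Lpl, in red, is the only gene called.

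Lpl read 6.10, 5.95 and 6.01 on the cortex arrays and 7.88, 7.88 and 7.41 on the corpus callosum arrays. The lowest corpus callosum array stood above every cortex array by more than a log2 unit. The difference was 1.70 ± 0.15 (SE), or 3.26-fold, with a 95% interval of 1.40 to 2.01 and an adjusted p of 1.72e-05 (limma). It was called under all 21 alternatives tried, with differences of 1.52 to 1.86 and adjusted p-values from 6.88e-07 to 0.032. Without both arrays numbered 1 it was 1.66 (adjusted p = 0.00161). The array holds another Lpl probe set, which differed by 1.34 ± 0.21 in the same direction.

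The adult Lpl difference sat on a much lower level than in the first postnatal week. Its arrays read 10.13 to 10.25 for P7 cortex, 10.12 to 10.15 for P3 cortex, 10.85 to 11.29 for P7 corpus callosum and 10.22 to 10.59 for P3 corpus callosum. The order of the group means was therefore P7 corpus callosum, P3 corpus callosum, P7 cortex, P3 cortex, adult corpus callosum and adult cortex, and the arrays of P7 cortex and P3 cortex, and those of P3 corpus callosum and P7 cortex, overlapped. The regional difference was 0.84 at P7 and 0.34 at P3. The adult difference exceeded the P3 difference by 1.37 (adjusted p = 0.0233, limma), and the excess over P7, 0.87, did not pass (adjusted p = 0.122). The comparison with P3 lost its call when any of 6 of the 12 arrays behind it was left out, namely cortex replicates 2 and 3 and corpus callosum replicates 1 and 2 of the adults, and cortex replicates 1 and 2 at P3, with adjusted p-values up to 0.0752 over all alternatives.

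Among the partners of lipoprotein lipase, 1 of 20 measured genes was called, Lpl itself. Apoe, Apoa5 (0.36), an activator of the lipase, and Sdc1 (0.33), a heparan sulfate proteoglycan, also lay above cortex at an unadjusted p under 0.05, which made 4 higher and 0 lower. Over all genes 4.16% were higher and 4.35% lower. The median of the list was 0.11, beside 0.01 over all genes, but it was 0.05 without both arrays numbered 1, 0.07 when cortex replicate 2 was left out and -0.01 when corpus callosum replicate 1 was. Apoe, the apolipoprotein of lipid particles in the brain and a transcript of activated microglia, read 5.52, 5.80 and 5.99 in cortex and 6.50, 6.21 and 6.68 in corpus callosum. Its regions did not overlap, and its difference was 0.69 ± 0.17 (adjusted p = 0.322). Apoc1, a lipase inhibitor, differed by 0.33 ± 0.25 (0.17 without corpus callosum replicate 2), and Apoc2, the obligate cofactor of the lipase, by 0.15. Gpihbp1, the endothelial anchor of the enzyme, differed by -0.18, the maturation factor Lmf1 by -0.04, the inhibitor Angptl4 by -0.11, and the receptors Vldlr and Lrp1 by 0.22 and -0.19.

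Genes of fatty acid uptake, storage and use spread in both directions, with a list median of -0.02 over 25 measured genes and 0 called. At an unadjusted p under 0.05, 3 members were higher and 5 lower (beside 4.16% higher and 4.35% lower of all genes). The 3 on the upper side were Fabp5, a cytosolic fatty acid carrier, at 0.63 ± 0.26, and the lipid droplet coat proteins Plin3 at 0.54 ± 0.16 and Plin2 at 0.48. Fabp5 read 6.05, 5.96 and 6.29 in cortex and 6.44, 7.18 and 6.58 in corpus callosum, and its difference was 0.41 without corpus callosum replicate 2. The 5 on the lower side included the mitochondrial beta-oxidation enzymes Acadl at -0.54 ± 0.14, Acadvl at -0.44 and Cpt2 at -0.34, with the monoacylglycerol lipase Mgll at -0.45 and the nuclear receptor Ppard at -0.32. Acadl, the long-chain acyl-CoA dehydrogenase, read 7.02, 7.34 and 7.26 in cortex and 6.67, 6.65 and 6.66 in corpus callosum, without overlap. None of the 8 passed adjustment, with adjusted p-values of 0.326 to 0.568, and after cyclic loess the counts were 3 and 4. Of 13 genes of cholesterol efflux and LXR targets, Apoe alone reached an unadjusted p under 0.05 and 0 were called, with a median of 0.03 and with the cholesterol exporters Abca1 at -0.27 and Abcg1 at -0.16.

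**Figure D2:**
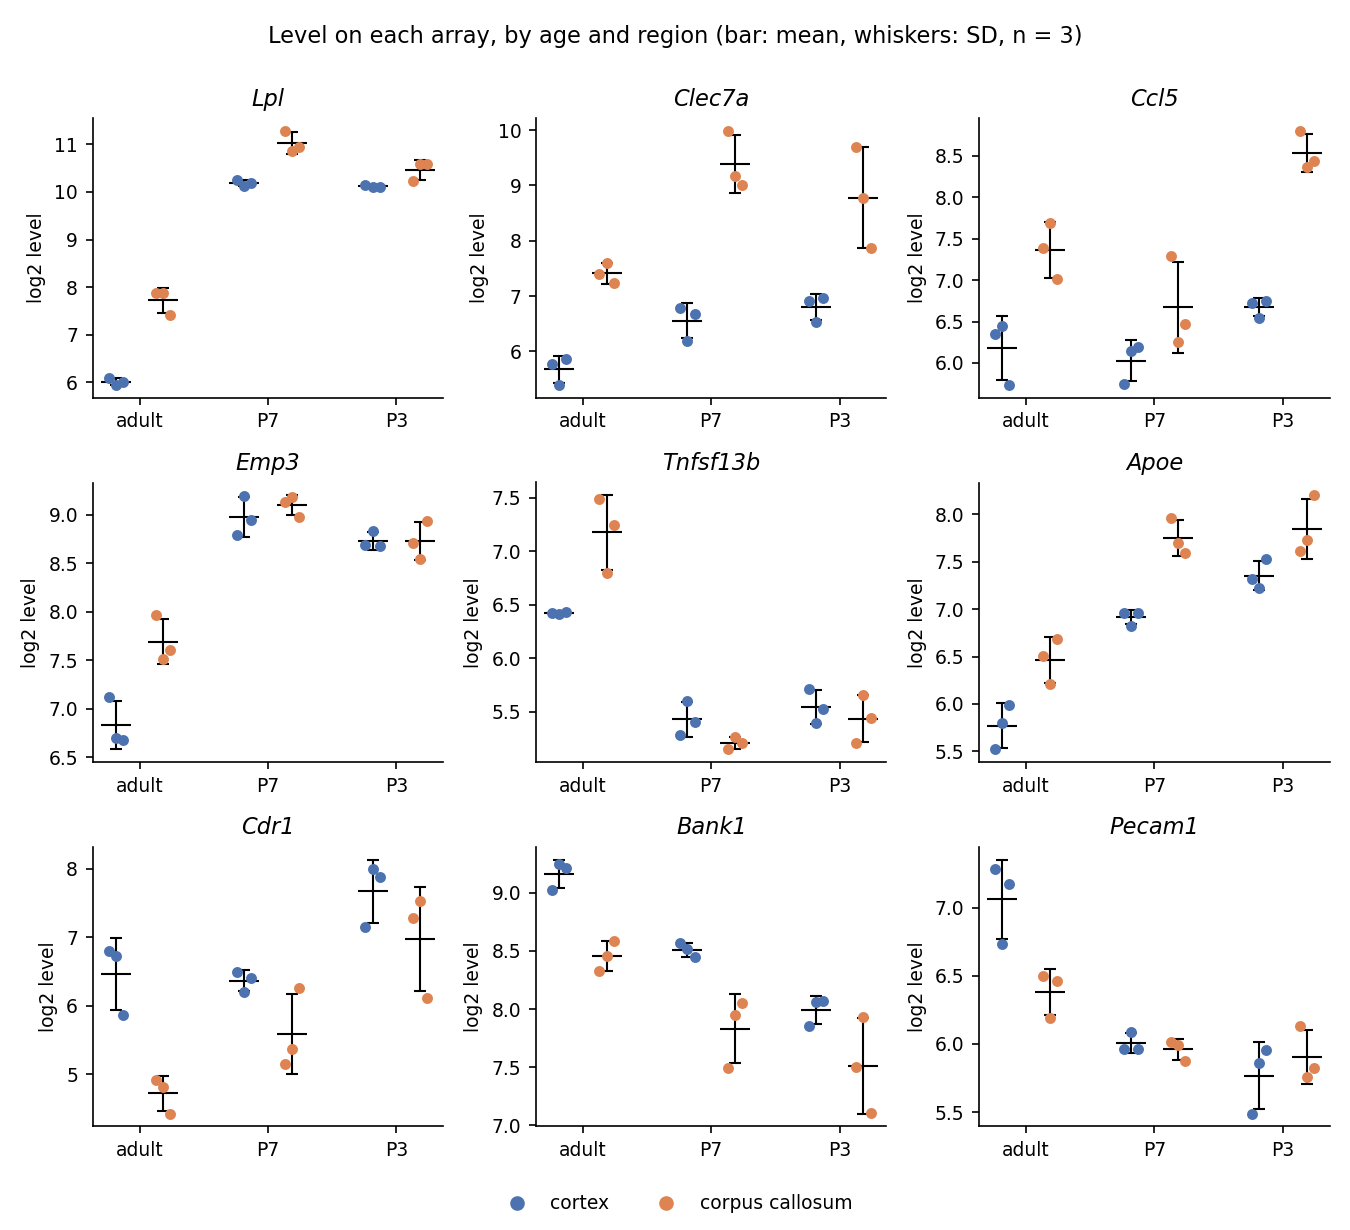
Level on each array (vertical axes, log2) of 9 genes in adult, P7 and P3 microglia, cortex in blue and corpus callosum in orange; points are single arrays, bars are means and whiskers are standard deviations (n = 3). In adults Lpl reads 5.95 to 6.10 for cortex and 7.41 to 7.88 for callosal arrays. The 2 regions do not overlap in adults for any of the 9 genes, which was a condition of the rule that named them.

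Clec7a had the largest difference with corpus callosum above cortex, though it was not called in the fit over all 18 arrays. It encodes dectin-1, a C-type lectin receptor known from microglia associated with damaged or developing white matter. It read 5.77, 5.39 and 5.86 in cortex and 7.41, 7.60 and 7.23 in corpus callosum. Every corpus callosum array exceeded every cortex array by more than a log2 unit, and the difference was 1.74 ± 0.33 (adjusted p = 0.236, limma). The SE rests on the spread of all 6 groups, and Clec7a was far more variable at P3 (SD 0.91 in corpus callosum) than in adults (SD 0.25 and 0.19). Fitted on the 6 adult arrays alone, the SE was 0.17 and the gene was called (adjusted p = 0.0193). It was called in 4 of 21 alternatives, with adjusted p-values from 0.00161 to 0.57; the lowest came with a level filter that Clec7a passed only through corpus callosum. The adult level was lower than at P7, where the regions read 6.55 and 9.39 on average, and the regional difference there was 2.83.

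Further genes were named by a fixed rule of size, separation and level, 12 per direction from 67 eligible genes with corpus callosum above and 198 with corpus callosum below. The rule takes only the brighter genes, where the slope with signal level was negative. Among the brightest 5545 genes, 63 were higher and 560 lower at an unadjusted p under 0.05, and 208 and 231 after cyclic loess. The part of the slope in the 67 and 198 was not tested. The rule read the level in the region where the gene was higher, so that Clec7a, Olfr1034, Lyz1, Apoe, Il1r1, Cdr1 and Zfp455 passed through that region alone and their listing gives no support to their differences. Other than Lpl, none of these passed adjustment, at 0.236 or above. The chemokine Ccl5 read 6.35, 6.45 and 5.73 in cortex and 7.39, 7.69 and 7.01 in corpus callosum, a difference of 1.18 ± 0.24 (adjusted p = 0.242). Its adult value lay between 0.65 at P7 and 1.86 at P3. T and natural killer cells also express Ccl5, which is itself among the 15 lymphocyte genes read. The mean level of the other 14 on an array was 4.85 to 5.14 for cortex and 4.89 to 5.05 for callosal arrays. The T cell receptor subunit Cd3e differed by 0.37 and the natural killer receptor Klrb1c by -0.36, a value that was -0.20 without cortex replicate 1 and -0.21 without corpus callosum replicate 2. The part of such cells in the Ccl5 value was not tested.

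Several of the remaining genes on the upper side had small or opposite differences at the younger ages. Emp3, a tetraspan membrane protein, read 7.12, 6.70 and 6.68 in cortex and 7.96, 7.51 and 7.61 in corpus callosum. The regions did not overlap, the difference was 0.86 ± 0.15 (adjusted p = 0.236), and at P7 and P3 it was 0.12 and -0.00. Tnfsf13b, the B cell survival factor BAFF, read 6.42, 6.41 and 6.43 in cortex and 7.49, 6.80 and 7.24 in corpus callosum, a difference of 0.75 ± 0.16 in adults against -0.22 at P7 and -0.11 at P3. Its adult arrays stood above all 12 younger ones in both regions. H60b, a ligand of the activating receptor NKG2D, differed by 1.02 ± 0.21 in adults, -0.45 at P7 and -0.42 at P3.

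The other genes of the upper group had differences between 0.67 and 0.88. They were the olfactory receptor Olfr1034 at 0.88, the lysozyme Lyz1 at 0.78, the secreted metalloproteinase Adamts1 at 0.73, Plekhh2 at 0.69 and the interleukin 1 receptor Il1r1 at 0.67. Lyz1 has a close paralog in Lyz2, which differed by 0.37, and the probes of such pairs can share signal. Ccl2, the monocyte chemoattractant, read 9.08, 9.01 and 8.97 in cortex and 9.89, 9.87 and 9.23 in corpus callosum, a difference of 0.65 ± 0.30 (adjusted p = 0.573). Over 27 cytokine and chemokine genes the median was 0.01 and 0 were called. Ccl5 and Ccl2 were the only 2 at an unadjusted p under 0.05, beside 4.16% higher and 4.35% lower of all genes. Tnf, Il1b and Il6 differed by 0.16, -0.20 and -0.29.

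On the lower side the largest difference belonged to Cdr1. It read 6.80, 6.73 and 5.86 in cortex and 4.92, 4.81 and 4.42 in corpus callosum, without overlap. The difference was -1.75 ± 0.35 (adjusted p = 0.236), and it was called in 2 of 21 alternatives, in 1 of them after a level filter that Cdr1 passed only through cortex. Cdr1 lies at a locus with a well-known antisense circular RNA, and the strand that the probe set reads is not stated. The histone gene H2ac15, a member of a family with nearly identical copies, differed by -1.25 ± 0.43, and Rpph1, the RNA subunit of ribonuclease P, by -1.0 ± 0.29.

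Bank1, an adaptor known from B cell receptor signalling, read 9.02, 9.25 and 9.21 in cortex and 8.33, 8.46 and 8.59 in corpus callosum. The difference was -0.70 ± 0.17 (adjusted p = 0.322), and it was close to this at P7 (-0.68) and P3 (-0.48). Pecam1, the adhesion molecule CD31 of endothelium and leukocytes, read 7.28, 6.73 and 7.17 in cortex and 6.50, 6.19 and 6.46 in corpus callosum, a difference of -0.68 ± 0.16 (adjusted p = 0.322). The mean level of 14 endothelial and mural genes on an array was 5.58 to 5.65 for cortex and 5.52 to 5.65 for callosal arrays, with 8 members above cortex and 6 below. The part of vessel cells in the Pecam1 value was not tested. The remaining genes were the amino sugar deaminase Gnpda1 (-0.91), Zfp455 (-0.84), the prostaglandin E2 receptor Ptger3 (-0.70), the proteasome chaperone Psmd10 (-0.70), Chid1 (-0.69), the gelatinase Mmp2 (-0.68) and the fusion protein Mymk (-0.65). Without corpus callosum replicate 1 the difference of Gnpda1 was -0.59 and that of Psmd10 -0.40.

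The genes that set callosal microglia apart at P7 were followed into the adult. At P7, 99 genes were called higher in corpus callosum (0.446%). These calls rest on the P7 means and on a spread pooled over all 18 arrays, the adult ones included. In adults 43 of them (43.4%) lay above cortex, where 51.8% of all genes did, and their median difference was -0.03 after 1.08 at P7 and 0.71 at P3. At an unadjusted p under 0.05, 12 were higher (12.1%, beside 4.16% of all genes) and 9 lower (9.09%, beside 4.35%), and without overlap 14 were higher (14.1%, beside 6.73%) and 16 lower (16.2%, beside 6.07%). A fit of the 12 P7 and P3 arrays, with no adult array in it, called 77 genes higher at P7, 75 of them among the 99. In adults 37 of these 77 lay above cortex, their median was -0.01, 9 were higher and 8 lower at an unadjusted p under 0.05, and 11 were higher and 10 lower without overlap. After cyclic loess the median of the 99 genes was 0.02, with 54 of the 99 above cortex. At an unadjusted p under 0.05, 15 of the 99 were then higher and 4 lower. Of the 99 genes 40 belong to the level group of the brightest 5545 genes, whose median over all genes was -0.09. For 90 of the 99, the adult interval lay within 1 log2 unit on either side of 0.

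Lpl was the only one of the 99 whose adult difference exceeded that at P7. The 12 on the upper side in adults were Lpl, Clec7a, Apoe, Il1rn, Fabp5, Rap2b, Plin2, Nceh1, Anxa2, Myo5a, Lgals1 and Tmem205. Il1rn, the interleukin 1 receptor antagonist, differed by 0.64 in adults and 0.86 at P7, and Nceh1, a cholesteryl ester hydrolase, by 0.46 and 1.86. On the lower side were the sodium pump subunit Atp1b3 (-0.49), the inhibitory receptor Lag3 (-0.49), Slc37a2 (-0.47), Smim20 (-0.41), Gsto1 (-0.33), Syngr1 (-0.28) and the glycolytic enzymes Tpi1, Pgk1 and Pgam1. Of these 21 genes, Lpl was called in adults and the others were not.

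Several genes with large differences at P7 were near 0 in adults, and Clec7a, at 2.83 at P7, was not among them. Itgax, the CD11c integrin that marks developmental white matter microglia, read 5.63, 5.64 and 5.91 in adult cortex and 5.62, 5.71 and 5.66 in adult corpus callosum, a difference of -0.06 ± 0.28 after 3.11 at P7. Gpnmb, a lysosomal membrane glycoprotein, read 5.42 to 5.96 and 5.60 to 5.66, a difference of -0.05 after 3.24, and Hpse, the heparanase, read 4.63 to 5.34 and 4.86 to 5.01, a difference of -0.05 after 2.66. The growth factor Igf1 read 5.70 to 5.94 and 5.69 to 6.20, a difference of 0.18 ± 0.27 after 2.44. The proton pump subunit Atp6v0d2 read 3.48 to 3.84 and 3.65 to 4.34, a difference of 0.22 ± 0.46 after 4.40. The adult regions overlapped for each of these 5 genes, and both adult group means were below the P7 cortex mean for each.

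**Figure D3:**
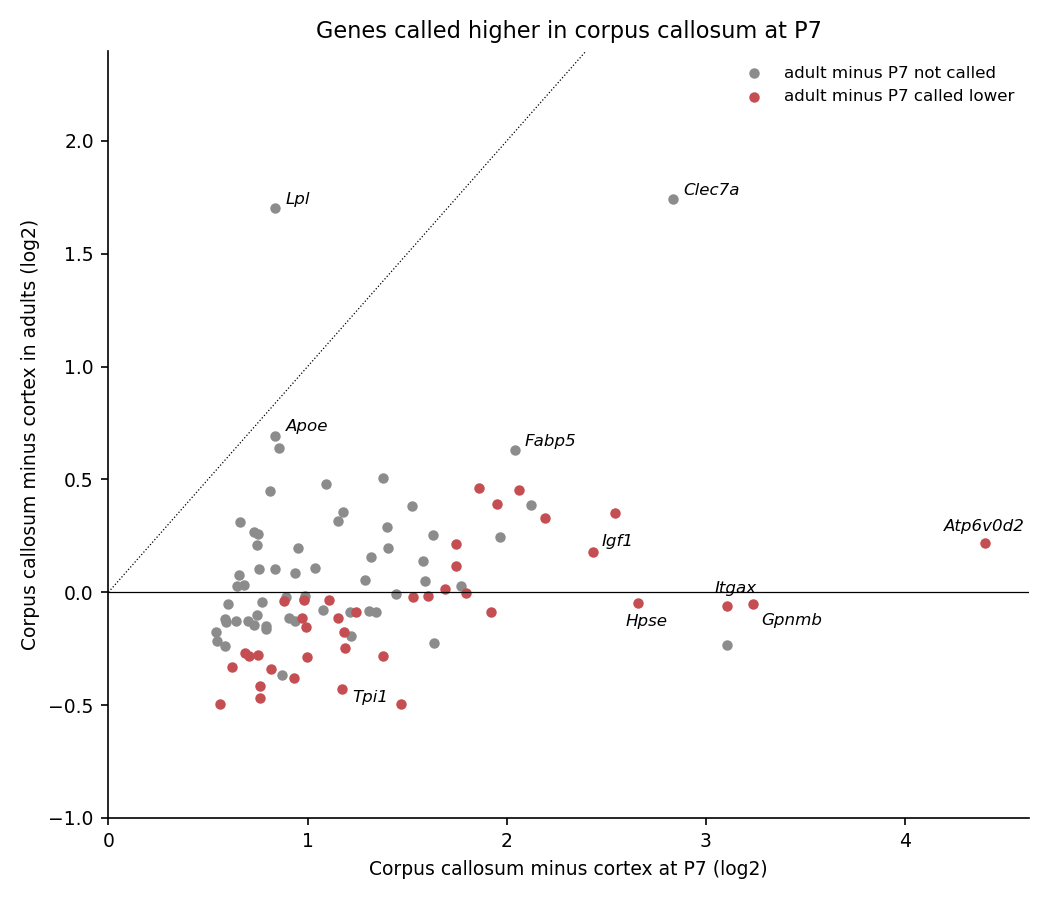
Difference of corpus callosum minus cortex in adults (vertical axis, log2) against that at P7 (horizontal axis, log2) for the 99 genes called higher in corpus callosum at P7, with equality as a dotted line. Red points are the 39 genes whose difference was called lower in adults than at P7; Lpl alone lies above the dotted line.

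A test of the change itself compared the regional difference in adults with that at P7. It called 44 genes lower in adults (0.198%) and H60b higher (0.00451%), and 39 of the 44 were among the 99 genes, which the P7 values had selected, so that this overlap is partly fixed by the choice. The change was -4.19 ± 0.65 for Atp6v0d2, -3.29 ± 0.48 for Gpnmb, -3.17 ± 0.39 for Itgax, -2.71 ± 0.29 for Hpse and -2.26 ± 0.38 for Igf1 (adjusted p = 0.00933, 0.00872, 0.00211, 0.00059 and 0.0189, limma). Atp6v0d2, Gpnmb, Itgax and Hpse kept the call when any 1 of the 12 adult and P7 arrays was left out. Igf1 lost it without adult cortex replicate 2 or 3, adult corpus callosum replicate 2, or P7 cortex replicate 2 or 3 (adjusted p up to 0.0776). H60b lost its call in 10 of 12 omissions (adjusted p up to 0.177). The number of calls, 45 in all, varied from 12 to 47 as single arrays were left out. It moved by over 1.5 times without any 1 adult cortex array, adult corpus callosum replicate 1 or 2, any 1 P7 cortex array or P7 corpus callosum replicate 1, and without both adult arrays numbered 1 it was 10. Against P3, 27 genes were lower (0.122%) and 13 higher (0.0586%), and the total of 40 moved by over 1.5 times in 11 of 12 omissions, all but that of adult cortex replicate 1. It was 0 without adult corpus callosum replicate 2 and 101 without adult corpus callosum replicate 3. The change from P3 was -2.24 ± 0.29 for Hpse (adjusted p = 0.00907), called in 11 of 12 omissions and lost without adult corpus callosum replicate 2.

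Genes of the white matter and CD11c-positive state of microglia were described as a list of 27 measured genes, drawn up with earlier results of these arrays known. Of these 27 genes, 16 were called higher in corpus callosum at P7 on these same arrays, so the list largely repeats the P7 genes. In adults Lpl was called, and 6 members were higher and 0 lower at an unadjusted p under 0.05 (beside 4.16% higher and 4.35% lower of all genes). The median was 0.18 in adults against 0.98 at P7 and 0.85 at P3. The 6 were Lpl, Clec7a, Apoe, Fabp5, Lgals1 (0.38), a galectin, and Axl (0.38 ± 0.17), a receptor for apoptotic cells. Axl read 6.35, 6.33 and 6.25 in cortex and 6.88, 6.74 and 6.46 in corpus callosum, without overlap, and its relative Mertk differed by -0.09. Trem2 and its adaptor Tyrobp differed by -0.11 and -0.02, the lysosomal protein Cd68 by -0.03, the tetraspanin Cd9 by -0.04, the protease Ctsb by -0.18 and the cystatin Cst7 by -0.27. Without both arrays numbered 1 the list median was 0.11, and after cyclic loess 0.20 with 9 higher and 0 lower.

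Energy genes leaned the other way in adults. Of 13 measured glycolytic genes, 10 lay below cortex, 0 were called and 4 were lower and 0 higher at an unadjusted p under 0.05 (beside 4.35% lower and 4.16% higher of all genes), with a median of -0.23 in adults against 0.71 at P7 and 0.42 at P3. Tpi1, the triosephosphate isomerase, read 7.47, 7.64 and 7.65 in cortex and 7.11, 7.12 and 7.24 in corpus callosum, a difference of -0.43 ± 0.20 after 1.17 at P7. Pgk1 differed by -0.38 ± 0.17 after 0.93, and Pgam1 and Gapdh by -0.34 and -0.23. The change from P7 was called for 3 glycolytic genes. It was -1.60 for Tpi1, -1.31 for Pgk1 and -1.16 for Pgam1, and the adjusted p-values (limma) were 0.0289 for the first of these and 0.0294 for the other two. Leaving out single arrays, which was not run for Pgam1, lost the calls in 8 of 12 cases for Tpi1 (adjusted p up to 0.124) and 9 of 12 for Pgk1 (up to 0.0984), among them the omission of adult cortex replicate 2 or 3 and of adult corpus callosum replicate 1 or 2. For oxidative phosphorylation the median was -0.18 over 21 genes, with 0 called. At an unadjusted p under 0.05, 5 were lower and 0 higher (beside 4.35% and 4.16% of all genes). Cycs, cytochrome c, read 9.45, 9.35 and 9.31 in cortex and 8.78, 9.05 and 8.92 in corpus callosum, a difference of -0.45 ± 0.12 (adjusted p = 0.332), and the complex I subunit Ndufb5 differed by -0.45.

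These energy lists lie where the slope with signal level was negative: 9 of the 13 glycolytic and 18 of the 21 respiratory genes belong to the level group of the brightest 5545 genes. In that group 560 of the 5545 genes were lower and 63 higher at an unadjusted p under 0.05, a larger lower share than over all genes. After cyclic loess the glycolytic median was -0.14 with 1 lower, and the respiratory median -0.09 with 3 lower. The same slope touched the homeostatic list, whose 22 genes all belong to that group and whose median went from -0.07 to 0.02, and the lysosomal list, whose median went from -0.06 to 0.02. Its part in the uncorrected values was not tested.

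Interferon response genes lay mostly below cortex. Of 19 measured members 16 were below, 0 were called and 4 were lower and 0 higher at an unadjusted p under 0.05, where 51.8% of all genes lay above cortex and 4.35% were lower. The list median was -0.20, and cyclic loess gave -0.25 with 3 lower and 1 higher. Without cortex replicate 2 the median was -0.11. Stat2, a transcription factor of type I interferon signalling, read 6.96, 7.12 and 7.15 in cortex and 6.70, 6.59 and 6.75 in corpus callosum. Its regions did not overlap, and the difference was -0.40 ± 0.13 (adjusted p = 0.452). Irf9, its partner, differed by -0.33 (-0.20 without corpus callosum replicate 2 and -0.51 without replicate 3), the ubiquitin-like Isg15 by -0.33 and the deconjugating enzyme Usp18 by -0.31, while Ifit3 and Ifit2 differed by 0.44 and 0.20.

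**Figure D4:**
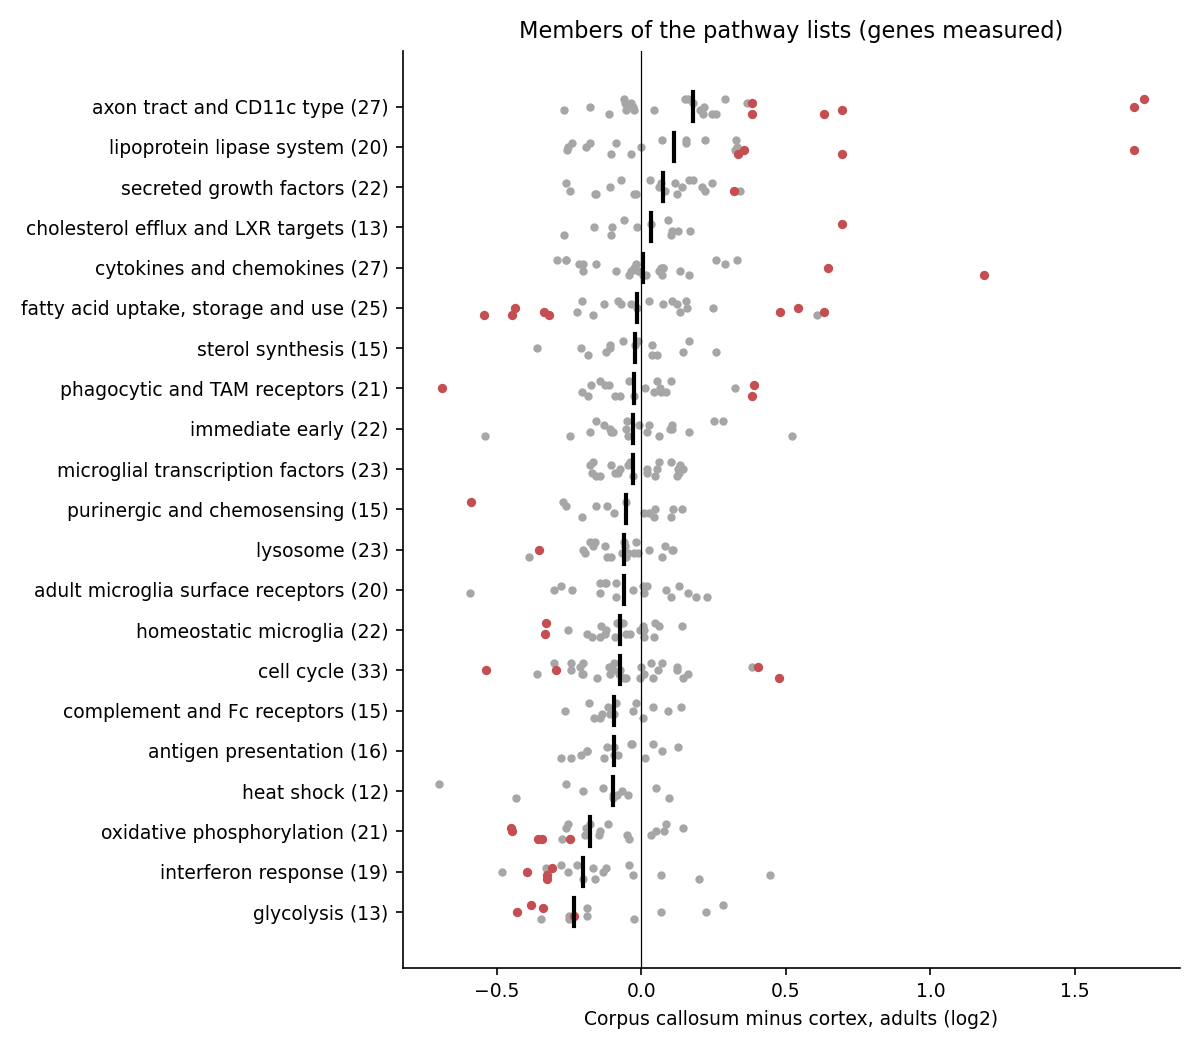
Difference of corpus callosum minus cortex in adults (horizontal axis, log2) for the members of 21 gene lists, with the number measured in brackets; red points have an unadjusted p under 0.05, grey points do not, and black bars are list medians. Medians run from -0.23 for glycolysis to 0.18 for the axon tract and CD11c type, beside 0.01 over all genes.

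Microglial surface and identity genes differed little. In the homeostatic list the transporter Slc2a5 differed by -0.14, Siglech by -0.12, Tmem119 by -0.13 ± 0.22, P2ry13 by 0.14 and the TGF-beta receptor Tgfbr1 by 0.01. The members at an unadjusted p under 0.05 were Crybb1, a crystallin of early microglia, at -0.33 ± 0.11 and the Fc receptor-like Fcrls at -0.33 ± 0.15, which was -0.15 without corpus callosum replicate 1. Aif1, the calcium-binding protein Iba1 by which microglia are stained, read 11.21, 11.33 and 11.32 in cortex and 10.90, 11.06 and 11.04 in corpus callosum, a difference of -0.29 ± 0.10 (adjusted p = 0.49). Of 23 transcription factors of microglia 0 reached an unadjusted p under 0.05 in either direction, and their differences ran from -0.18 for Smad4 to 0.14 for Tfec, with Spi1 (PU.1) at -0.04 and Irf8 at 0.02. Lysosomal genes gave 0 called and 1 lower of 23, the proton pump subunit Atp6v1h at -0.35, beside 4.35% lower of all genes.

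Markers of other cells were read on the same arrays, because a sort can carry over RNA, and because in bulk samples fewer cells of a type and less RNA per cell cannot be told apart. For 15 oligodendrocyte genes the mean level on an array was 5.47 to 5.56 for cortex and 5.45 to 5.61 for callosal arrays, with a median difference of 0.04 and 0 at an unadjusted p under 0.05. The myelin genes Mbp, Mog and Mag differed by -0.09, 0.17 and 0.02. The 11 astrocyte genes had mean levels of 5.50 to 5.62 and 5.41 to 5.48, without overlap, and a median of -0.23, which was -0.10 without both arrays numbered 1, -0.13 without corpus callosum replicate 3 and -0.15 without corpus callosum replicate 2, with the glutamate transporter Slc1a3 at -0.59 ± 0.22 and Gfap at 0.20. The mean of 11 genes of border-associated macrophages was 5.51 to 5.61 for cortex and 5.65 to 5.67 for callosal arrays with a median of 0.13 (0.08 without corpus callosum replicate 1, after cyclic loess or with centred arrays), while their mannose receptor Mrc1 differed by -0.69 ± 0.27. This value was -1.04 without cortex replicate 1 and -0.40 without corpus callosum replicate 1. Neuron, monocyte and neutrophil lists had medians of -0.02, 0.08 and 0.05. The part of such cells in the differences above was not tested.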

How the data were processed

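The authors deposited log2 values for each probe set on every array. Per the submitters' processing notes they come from RMA, robust multi-array averaging, whose version, settings and annotation build are unstated. The logarithm was taken as base 2. RMA makes array distributions alike, so a change of total RNA cannot be seen.

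Of 41345 probe sets, 23521 had 1 gene symbol in GEO's platform annotation, 1814 several and 16010 none; the probe set with the highest mean stood for a gene, leaving 22180 genes. A mean per group was fitted to all 18 arrays in limma 3.58.1 (R 4.3.3) with 12 residual degrees of freedom, and p-values were two-sided and adjusted by Benjamini-Hochberg over all genes, with calls at 0.05. The smallest two-sided permutation p for 3 against 3 arrays is 0.1. The fit was checked on simulated data.

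Named genes were the called gene, 12 per direction of largest difference among separated genes with an unadjusted p under 0.01 and a mean in the higher region above the median of all genes, up to 2 members per direction of each list, a panel of genes that differed at P7, and up to 5 per direction from the age comparison; others are named as plain values, chosen after their values were seen. The 21 pathway and 12 marker lists, like the comparison itself, were chosen with earlier results of these data known. Some listed genes were not used here. Replicate numbers were checked for pairing by the correlation of deviations, which was 0.30, 0.06 and 0.25 in adults. The arrays numbered 1 also shared the sex read from Xist and Kdm5d. The labels state no pairing, so whether the numbers mark matched arrays is not settled. No pairing was assumed in the main fit, and a fit with the replicate number as a block is among the alternatives. Alternatives varied the arrays fitted, variance model, normalization, level filter, probe set rule, replicate block, sex covariate and omitted arrays. Omission of both arrays numbered 1, of single P7 and P3 arrays, array weights, cyclic loess P7 calls made without the adult arrays and the use of all probe sets were added after seeing the data.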

Additional observations from a re-analysis of the deposited data

Results flagged for a closer look

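The regional difference changed with age by limma's test of the change for 13 of the genes named under the rules stated with the processing. Some rules took genes that differed at P7 or that this test had called, so the count of 13 is partly fixed by the choice. Over all genes, 0.198% were called lower and 0.00451% higher against P7, and 0.122% lower and 0.0586% higher against P3. Each of the 13 is listed with the adult regional difference minus the younger one. Against P7 it was lower in adults for Atp6v0d2 (-4.19), Gpnmb (-3.29), Itgax (-3.17), Hpse (-2.71), Igf1 (-2.26), Apoc1 (-1.86), Tpi1 (-1.60), Pgk1 (-1.31), the sphingosine 1-phosphate receptor S1pr1 (-1.23) and Acadl (-1.12), and higher for H60b (1.47). The adjusted p-values ran from 0.00059 for Hpse to 0.0489 for H60b. Among genes given elsewhere as plain values, the change from P7 was also called for Pgam1, Cd9, Lag3, Anxa2, Nceh1, Atp1b3, Slc37a2, Smim20, Gsto1 and Syngr1, all lower in adults. Apoc1, S1pr1 and Acadl lost their calls in 9, 10 and 8 of 12 omissions of single arrays, with adjusted p-values up to 0.162, 0.0954 and 0.0846.

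Against P3 the difference was lower in adults for Gpnmb (-2.58), Hpse (-2.24), Itgax (-2.0), Tpi1 (-1.49), Pgk1 (-1.33), Acadl (-1.16) and the cystatin Cst7 (-1.05), and higher for Lpl (1.37). Of the genes given as plain values, Atp1b3, Gsto1 and Lag3 were called lower as well. The adjusted p-values of the 8 ran from 0.00907 for Hpse to 0.0455 for Itgax. Of the 12 omissions of single arrays, Hpse kept its call in 11, Lpl in 6, Pgk1 in 4, Acadl and Tpi1 in 3, Gpnmb and Cst7 in 2 and Itgax in 0, with adjusted p-values up to 0.124 for Itgax.

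S1pr1, which guides leukocytes along sphingosine gradients, read 7.70, 7.49 and 7.49 in adult cortex and 7.33, 6.82 and 6.76 in adult corpus callosum, a difference of -0.59 ± 0.16 (adjusted p = 0.373), after 0.64 at P7. Acadl differed by -0.54 in adults, 0.57 at P7 and 0.62 at P3, so that the regions stood in opposite order in the adult and the young brain. None of these 3 differences passed adjustment by itself (adjusted p = 0.326, 0.0948 and 0.0522, limma).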

How the results depend on the processing

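Lpl was called in adults under every alternative run. The count of adult calls, 1 in the fit over 18 arrays, was 2 with the 6 adult arrays alone or with the 12 P7 and adult arrays (Lpl and Clec7a), 3 among genes above the median level in the 6 arrays (with Cdr1; this filter keeps a gene that exceeds the median in either region, and Cdr1 and Clec7a passed it through 1 region only), 3 with array weights (with Clec7a and Emp3), and 1 to 3 as adult arrays were left out, where Cypt12 and Mrpl23 joined without corpus callosum replicate 3. With the replicate number as a block the count was 1 over all arrays (Lpl adjusted p = 0.000897) and 2 in the 6 arrays alone, Lpl and Cdr1; in adults 2 of 3 numbers had their own partner as the highest correlation of deviations. Without both arrays numbered 1, after cyclic loess and over all 41345 probe sets, Lpl remained the only call. The count of 45 for adult minus P7 was 24 with 12 arrays, 79 and 77 with a variance trend without and with robust fitting, 91 above the median level, 28 with the replicate block, 12 to 47 with single arrays left out, 10 without both arrays numbered 1, 105 with array weights and 24 after cyclic loess. The count of 40 for adult minus P3 was 93 and 96 with the trend, 17 after quantile normalization, 80 with centred arrays, 177 above the median level, 21 with the block, 0 to 101 with arrays left out, 63 with Xist as covariate, 0 without both arrays numbered 1 and 14 after cyclic loess; the cause of these moves was not tested. It could not be fitted on the 12 P7 and adult arrays, which hold no P3 sample. The 97.1% of genes with intervals within 1 log2 unit became 57.3% at 0.5 log2 units, 98.5% above the median level and 95.2% to 96.4% with an array left out. Genes near 0 in adults turned sign without being called: Gpnmb (0.0296 after loess, -0.184 to 0.0879 with an array left out), Hpse (0.0283 as a mean of probe sets, -0.22 to 0.13), Itgax (-0.107 to 0.0302), P2ry12 (-0.0387 centred, -0.0161 to 0.0305), Tmem119 (-0.364 to 0.0592), Cx3cr1 (-0.0051 after quantile normalization, -0.0405 centred, -0.0396 without both arrays numbered 1, -0.0489 with array weights, -0.0753 to 0.0522 with an array left out) and Csf1r (0.0015 after quantile normalization, 0.0005 with Xist, 0.0658 after loess, -0.0947 to 0.0488 with an array left out). With 3 arrays a group, and with signal not told apart from background, the size of a difference at a low level is uncertain.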

Other observations

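Receptors for debris had a median difference of -0.02 in adults. Of 21 phagocytic and TAM receptor genes 0 were called. At an unadjusted p under 0.05, 2 were higher and 1 was lower, beside 4.16% higher and 4.35% lower of all genes. The scavenger receptor Marco read 4.78, 4.56 and 4.60 in cortex and 5.23, 4.96 and 4.93 in corpus callosum, a difference of 0.39 ± 0.13 without overlap (adjusted p = 0.454). Mrc1, the mannose receptor, read 6.13, 7.24 and 7.10 in cortex and 5.56, 6.24 and 6.61 in corpus callosum, with overlap. In both regions its adult level was far under that at P7, where the means were 11.05 and 10.57.

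Complement and Fc receptor genes (15 measured, median -0.09), antigen presentation genes (16, median -0.09) and heat shock genes (12, median -0.10) had 0 members called and 0 at an unadjusted p under 0.05 in either direction, and the same held for 15 sterol synthesis genes (median -0.02), 22 immediate early genes (median -0.03) and 20 adult surface receptor genes (median -0.06). Among 22 secreted growth factor genes Bmp2 alone reached an unadjusted p under 0.05, at 0.32 ± 0.13, and it was 0.19 without cortex replicate 3 and 0.20 without corpus callosum replicate 3. Of 33 cell cycle genes 0 were called. At an unadjusted p under 0.05 the mitotic genes Cdca8 (0.48 ± 0.16) and Cdc20 (0.40) were higher. Prc1 (-0.54, but -0.35 without cortex replicate 2) and Mcm2 (-0.30) were lower, beside 4.16% higher and 4.35% lower of all genes. At P7 and P3 the median of the cell cycle list was -0.39 and -0.37, against -0.08 in adults.

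Of the 23 genes with adult differences beyond 1 log2 unit, 16 lay outside the rule for named genes and are given as values chosen after they were seen. They included the olfactory receptors Olfr776 (1.12), Olfr339 (1.18), Olfr1029 (1.06), Olfr1501 (1.03) and Olfr111 (-1.03), the trace amine receptor Taar8b (1.22), the zinc finger gene Zfp932 (-1.52) and small RNA genes such as Mir532 (1.15) and Snora69 (1.11). None was called, and the mean adult levels of Taar8b, Olfr339 and Olfr776 were 2.08, 2.5 and 2.75.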
